A study of Mus musculus with 8 samples.

Results

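The SR and hnRNP splicing factor genes were compared between control lung tumors of mice (K-Ctrl) and lung tumors in which Setd2 had been targeted (K-Setd2KO). The set was defined by gene name and held the protein-coding genes named Srsf or Hnrnp with their numbers and letters, the polypyrimidine tract-binding genes Ptbp1, Ptbp2 and Ptbp3, and Tra2a, Tra2b, Rbfox2, Esrp1, Esrp2, U2af1, U2af2 and Sf3b1. These were 42 of the 48709 rows of the table, and 41 of them passed the filter on low counts. The gene left out was Srsf12, at 0.0923 to 0.357 CPM (a count per TMM-adjusted library total) in the controls and 0.612 to 1.03 CPM in K-Setd2KO. Pseudogenes with such names, of which there were 2, were not members.

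RNA was sequenced from 8 tumors, 4 in each group. All mice were of a mixed B6J/129S4vJae background. Tumors were started by delivering the lentivirus LentiCRISPRv2Cre, which carries Cre, Cas9 and a guide RNA, through the trachea. The guide targeted GFP in K-Ctrl and Setd2, the enzyme that trimethylates lysine 36 of histone H3, in K-Setd2KO. The tumors had been matched for stage by histology, and those of K-Setd2KO are described by the study as adenomas of low grade, whereas the labels say adenocarcinoma. The study used mice of both sexes and gives an upper age for the start of tumors, but the sources used here do not give the age or sex behind each tumor. The label on RNA isolation speaks of cell lines although the samples are labelled as lung adenocarcinoma tissue. Nothing states whether the tumors of a group came from separate mice, so p-values measure the spread between these samples.

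SR proteins bind exons through RNA recognition motifs and recruit the splicing machinery through domains rich in arginine and serine, which usually favors inclusion of the exon. The hnRNP proteins coat nascent transcripts and often act against inclusion, and both families shape splicing by their relative amounts. Many of these genes also limit their own protein through alternative exons that send the transcript to nonsense-mediated decay, so a gene count does not separate productive transcripts from those that are degraded. ESRP1 and ESRP2 are made mainly in epithelial cells and set epithelial splice forms there.

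The totals were 5806599 to 21290402 counts per tumor, a 3.67-fold range. Setd2 itself was at 140.1 ± 8.81 CPM (SD, n = 4) in the controls against 135.7 ± 15.5 CPM in K-Setd2KO (log2 fold change -0.05, edgeR adjusted p = 0.824). The 2 ranges overlapped, so the RNA level of Setd2 does not check the labels. As background, a small deletion made by Cas9 need not lower the count of a transcript. Female expression (Xist high, Y-linked genes near 0) was seen in 1 K-Ctrl tumor and in 3 K-Setd2KO tumors. Genes of the leukocyte list were lower in K-Setd2KO, with 8 of 10 called and a summed level of 1179 to 2160 CPM against 629.8 to 824.4 CPM. Macrophage (5 of 12 called lower), endothelial (2 of 10), fibroblast (3 of 10) and ciliated cell (2 of 8 tested) markers also had negative medians, between -1.82 and -1.17. Summed endothelial levels were 609.6 to 2127 against 295.9 to 624.0 CPM, and summed fibroblast levels 962.9 to 1780 against 254.2 to 976.8 CPM. The epithelial list had 3 of 10 called higher and sums of 1865 to 2902 against 2474 to 3205 CPM, and the proliferation list had 3 of 12 called lower and sums of 351.8 to 386.5 against 132.0 to 265.5 CPM. The part of these cell type shifts in the values below was not tested, except that Esrp1 and Esrp2 are set against the epithelial markers. In bulk samples such as these, fewer cells of a type and less RNA per cell cannot be told apart.

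At an adjusted p under 0.05, 4 members differed between the groups, all of them higher in K-Setd2KO. They were the epithelial regulators Esrp1 (1.67-fold) and Esrp2 (1.60-fold) and the SR protein genes Srsf5 (1.94-fold) and Srsf6 (1.32-fold). The 4 were 9.76% of the members tested, where 4.97% of all 14929 genes tested were called higher. No member was called lower, where 7.74% of all genes were, and DESeq2 (10.6% of all genes lower) and limma voom (7.11%) also called 0 members lower. At an unadjusted p under 0.05, 9 members (22.0%) were higher and 0 lower, against 13.6% and 16.3% of all genes. Without overlap between the 4 and the 4 tumors, 7 members (17.1%) were higher and 0 lower, against 9.06% and 11.2% of all genes. The calls depended on single tumors: edgeR called 0 members without K-Ctrl 1, 2 or 3, 2 without K-Ctrl 4 or K-Setd2KO 1, 3 or 4, and 5 without K-Setd2KO 2. The share of all genes called higher also varied, from 4.97% with every tumor: 1.8%, 2.19% and 1.49% without K-Ctrl 1, 2 and 3, 4.4% without K-Ctrl 4, and 3.32%, 5.67%, 2.41% and 3.35% without K-Setd2KO 1 to 4. Within the tumors of male and of female expression, where one group has only 1 tumor and no test was made, the log2 ratios of mean CPM were 0.59 and 0.76 for Esrp1, 0.56 and 0.94 for Esrp2, 1.65 and 0.59 for Srsf5, and 0.55 and 0.27 for Srsf6.

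Differences of the members were small. Their median log2 fold change was 0.16, against 0.03 over all genes tested, and 33 of 41 (80.5%) had a positive value, against 52.7% of all genes. None passed a 2-fold difference in the main fit, which 18.3% of all genes did. In some other fits Srsf5 passed it. Its log2 fold change was 1.12 with sex as a term and 1.17 with a length and GC trend removed (1.03 in a revised version). The members were also more abundant than most genes (median 197.1 against 20.3 CPM) and varied less between tumors of one group, with a median coefficient of variation of 8.97% against 18.2% in K-Ctrl and 13.5% against 24.5% in K-Setd2KO. Variation was larger in K-Setd2KO for 30 of the 41, and the median over all genes was larger there as well. The same count was not made over all genes.

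**Figure D1:**
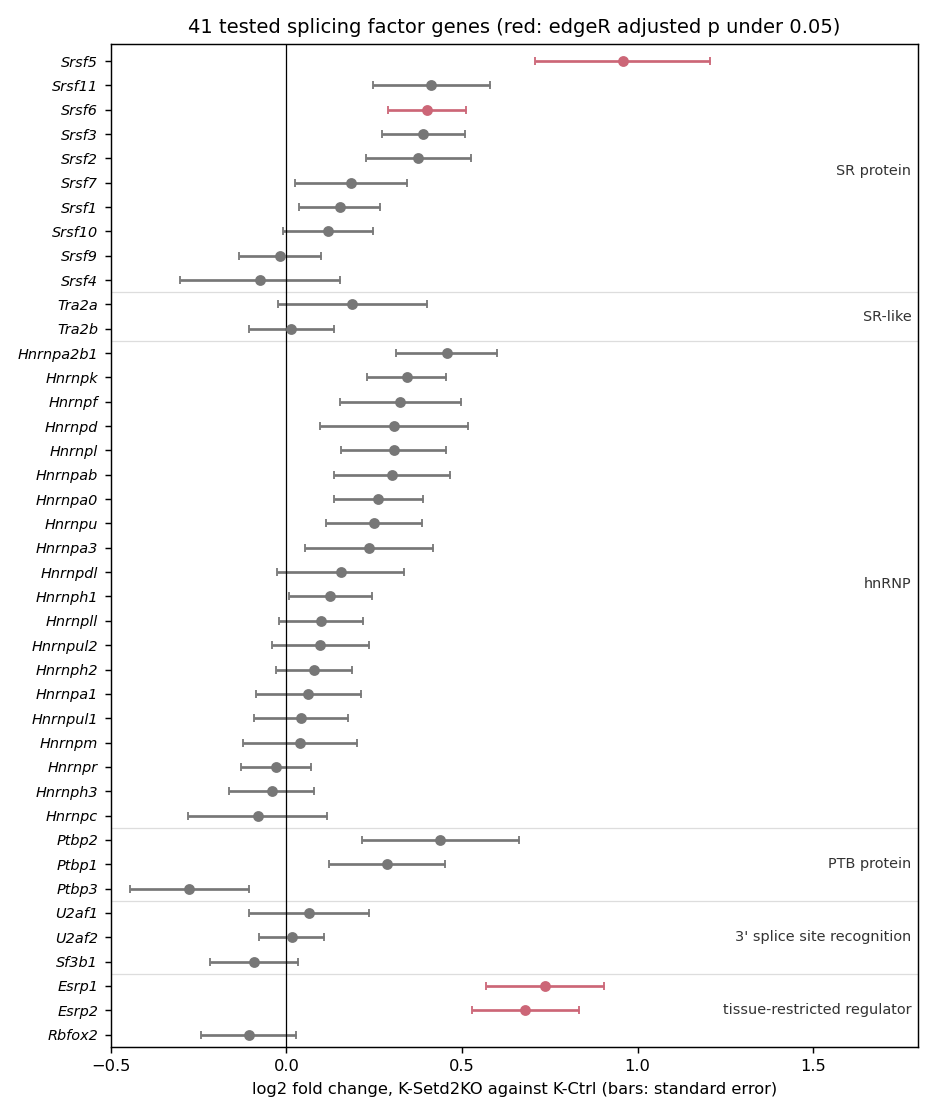
Log2 fold change of K-Setd2KO against K-Ctrl (x axis) for the 41 tested genes (y axis), grouped by family, with standard errors from edgeR. Red marks the 4 genes with an adjusted p under 0.05, all to the right of 0, and 33 of the 41 points lie to the right of 0.

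Esrp1 (ENSMUSG00000040728.15, chr4:11331933-11386783, minus strand, GRCm38) was at 67.5, 85.9, 74.5 and 109.3 CPM in K-Ctrl 1 to 4 and at 142.4, 128.5, 125.8 and 165.0 CPM in K-Setd2KO 1 to 4. The highest control, K-Ctrl 4, lay below every K-Setd2KO tumor. The fitted log2 fold change came to 0.74 ± 0.17 (SE, edgeR adjusted p = 0.0243). The adjusted p was between 0.0509 and 0.0776 without K-Ctrl 1, 2 or 3 or K-Setd2KO 1 or 4, and 0.0791 with sex as a term. The log2 fold change in those fits stayed between 0.64 and 0.74, and was 0.67 with the sex term.

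Esrp2 (ENSMUSG00000084128.10, chr8:106130319-106136974, minus strand) had the narrower K-Setd2KO range. It was at 56.0, 51.9, 56.7 and 81.9 CPM in the controls and at 96.3, 103.8, 95.9 and 98.9 CPM in K-Setd2KO. The groups did not overlap, and K-Ctrl 4 was again the highest control. The log2 fold change was 0.68 ± 0.15 (SE, edgeR adjusted p = 0.0229), and the adjusted p passed 0.05 when K-Ctrl 1 (0.0659), K-Ctrl 2 (0.059), K-Ctrl 3 (0.0748) or K-Setd2KO 3 (0.0519) was left out, with log2 fold changes of 0.60 to 0.70. Esrp2 shares 5.05% of its exon bases with the opposite-strand gene Nfatc3, and the strand setting of the counting was not given in the sources used here.

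Rbfox2, placed here in one family with Esrp1 and Esrp2, binds UGCAUG motifs near exons. It was at 88.0, 87.2, 79.7 and 111.0 CPM in the controls and 78.8, 83.1, 79.2 and 98.6 CPM in K-Setd2KO, with overlapping groups (log2 fold change -0.11 ± 0.14, edgeR adjusted p = 0.638).

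Epithelial markers differed among themselves. Of 10, Epcam, Krt18 and Elf3 were called higher in K-Setd2KO, while Cdh1 was at a log2 fold change of -0.01 (edgeR adjusted p = 0.97) and Krt19 at -0.56 (0.082). Of 10 markers of alveolar type 2 cells, the epithelial cells that make surfactant, 1 was called higher (Sftpb, 1.08) and 1 lower (Napsa, -1.60), with a median of -0.00036. The mean log2 CPM of the 10 epithelial markers was 6.74, 6.73, 6.74 and 7.38 in K-Ctrl and 7.48, 7.51, 7.26 and 7.49 in K-Setd2KO. K-Ctrl 4, the control with the highest Esrp levels, also had the highest marker mean among the controls. Relative to that mean, Esrp1 was at -0.52 ± 0.15 in K-Ctrl and -0.31 ± 0.16 in K-Setd2KO on the log2 scale, a difference of 0.22 (two-sided exact permutation test, p = 0.0857, also 0.0857 after adjustment over the 2 genes). For Esrp2 the values were -0.98 ± 0.06 and -0.81 ± 0.10, a difference of 0.17 (exact permutation p = 0.0286, the smallest this design allows, and 0.0571 after adjustment). This comparison was chosen after the Esrp values were seen.

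**Figure D2:**
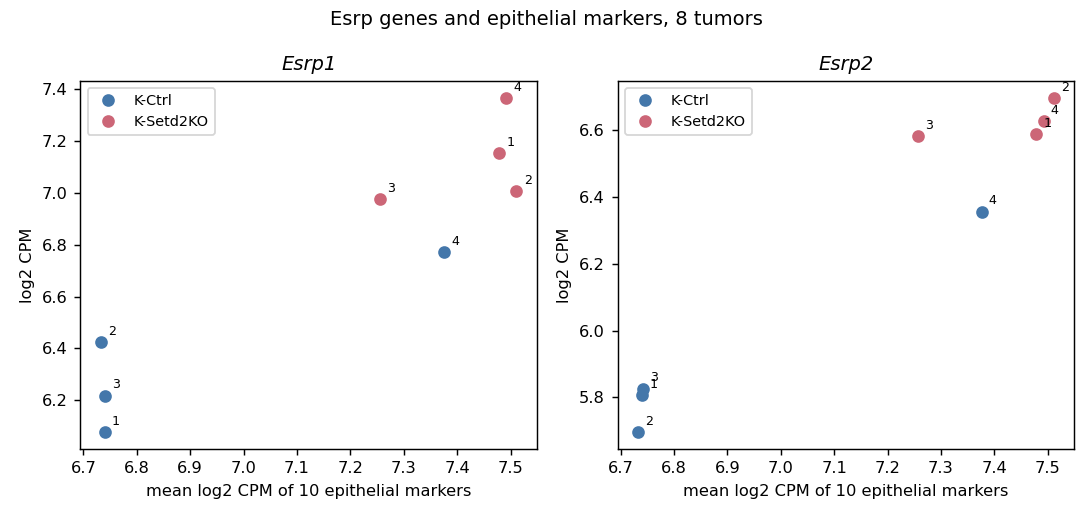
Log2 CPM of Esrp1 and Esrp2 (y axes) against the mean log2 CPM of 10 epithelial markers (x axes), 1 point per tumor, with its replicate number. K-Ctrl 1, 2 and 3 sit at the lower left with marker means of 6.73 to 6.74, and K-Ctrl 4, at 7.38, lies beside the K-Setd2KO tumors on the x axis.

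Among the SR protein genes, 8 of 10 tested had a positive log2 fold change (median 0.28), 2 were called and 5 had an unadjusted p under 0.05, all higher. Over all genes 52.7% were positive, 4.97% called higher and 13.6% higher at that unadjusted p. Srsf5 (ENSMUSG00000021134.17, chr12:80945504-80950507, plus strand) encodes a serine- and arginine-rich factor whose own transcript is alternatively spliced. It was at 609.4, 673.0, 705.8 and 623.2 CPM in the controls and 1019, 1126, 2027 and 898.6 CPM in K-Setd2KO. The groups did not overlap, and K-Setd2KO 3 was far above the other 3 of its group. On the log2 scale the difference was 0.96 ± 0.25 (SE, edgeR adjusted p = 0.0369). It was 0.64 without K-Setd2KO 3 (adjusted p = 0.0399), and the call was lost without any 1 of the 4 control tumors (0.0701 to 0.0946), where the log2 fold change was 0.92 to 0.99.

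Srsf6 (ENSMUSG00000016921.14, chr2:162931528-162937121, plus strand) was at 240.1, 251.9, 241.1 and 214.9 CPM in the controls and 324.7, 297.5, 340.3 and 288.2 CPM in K-Setd2KO. The groups did not overlap. The log2 fold change was 0.40 ± 0.11 (SE, edgeR adjusted p = 0.0455). This call was the least stable of the 4, since the adjusted p lay between 0.0528 and 0.116 in all 8 fits that left out 1 tumor (log2 fold changes 0.36 to 0.43), and was 0.108 with the replicate block.

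Both promoters are shown because these are the called SR genes. The windows run from 250 bases before to 50 after the annotated start (RefSeq, GRCm38.p6), and capitals mark GGGCGG on either strand (CCGCCC on the shown strand).
Srsf5, chr12:80945249-80945548, plus strand: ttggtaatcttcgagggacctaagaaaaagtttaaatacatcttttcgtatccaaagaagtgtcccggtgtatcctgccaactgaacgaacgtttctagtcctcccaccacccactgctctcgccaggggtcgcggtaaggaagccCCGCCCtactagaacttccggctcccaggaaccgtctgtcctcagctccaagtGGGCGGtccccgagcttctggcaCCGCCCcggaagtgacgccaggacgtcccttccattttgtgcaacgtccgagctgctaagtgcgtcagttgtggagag
Srsf6, chr2:162931258-162931557, plus strand: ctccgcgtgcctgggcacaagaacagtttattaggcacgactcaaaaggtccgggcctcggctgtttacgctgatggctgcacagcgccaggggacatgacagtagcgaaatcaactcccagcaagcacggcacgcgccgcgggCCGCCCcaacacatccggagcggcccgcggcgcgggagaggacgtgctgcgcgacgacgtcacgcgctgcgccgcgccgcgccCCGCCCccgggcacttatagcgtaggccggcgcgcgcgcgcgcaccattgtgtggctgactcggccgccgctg
Windows were found for 35 of the 42 members, by symbol, and none for Esrp1 or Esrp2. With 1 window per gene, the one nearest the deposited gene start, GGGCGG was present on at least 1 strand in 28 of 34 tested members (82.4%), against 63.3% of 10923 tested genes with a window. The other motifs searched on both strands were CCAAT (55.9% against 38.1%), CACGTG (14.7% against 9.9%) and TATAAA (11.8% against 7.4%). The median GC content was 64.2% against 60.7%. These matches describe letters in the windows only, and were chosen for listing after the gene values were seen.

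Srsf3, whose protein also takes part in mRNA export, was at 189.2, 212.5, 180.5 and 181.9 CPM in the controls and at 223.5, 259.8, 281.4 and 236.9 CPM in K-Setd2KO. Its groups did not overlap, but its adjusted p was 0.0583 (log2 fold change 0.39 ± 0.12, edgeR). Srsf2, which binds exonic enhancers, was at 136.3, 182.9, 178.7 and 133.7 CPM against 194.0, 179.1, 237.8 and 208.6 CPM, overlapping at K-Setd2KO 2 (0.38 ± 0.15, edgeR adjusted p = 0.131). Srsf11 was at 246.6, 274.1, 289.9 and 270.1 CPM against 311.4, 371.4, 471.4 and 283.9 CPM (0.41 ± 0.17, edgeR adjusted p = 0.134, and 0.26 without K-Setd2KO 3). Of these 3, only Srsf3 separated the groups completely, and each was highest in K-Setd2KO 3. The other SR genes had log2 fold changes between -0.07 (Srsf4) and 0.18 (Srsf7). Srsf4 shares 43.0% of its exon bases with an opposite-strand transcript, and Srsf2 15.6% with Mettl23 and 9.74% with Mfsd11 on the other strand, so their counts are uncertain. 

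**Figure D3:**
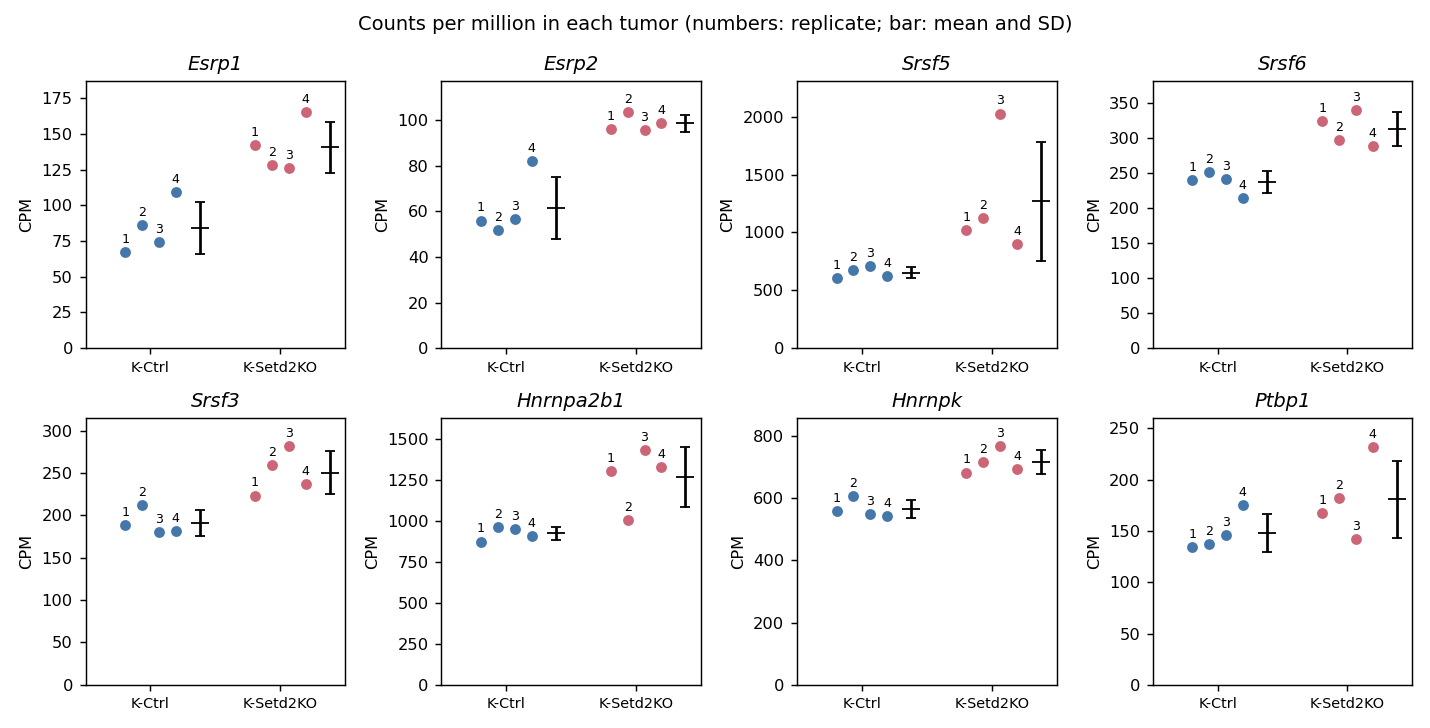
CPM (y axes) of 8 members in each tumor, with replicate numbers beside the points and the mean with SD as a bar. The groups do not overlap in the first 7 panels, and Ptbp1 is shown as a member whose groups overlap. K-Setd2KO 3 stands at 2027 CPM for Srsf5.

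Of the 20 hnRNP genes, 17 had a positive log2 fold change (median 0.14) and 0 were called by edgeR; 2 had an unadjusted p under 0.05, both higher, and DESeq2 called those same 2. These counts stand against the same shares of all genes (52.7%, 4.97% and 13.6%). Hnrnpa2b1 (chr6:51460932-51469894), an abundant binder of nuclear RNA, was at 873.8, 962.3, 952.1 and 907.7 CPM in the controls and 1305, 1006, 1434 and 1327 CPM in K-Setd2KO. All K-Setd2KO tumors lay above the controls, K-Setd2KO 2 by the least (log2 fold change 0.46 ± 0.14, edgeR adjusted p = 0.0674). Hnrnpk, which binds C-rich RNA, was at 559.5, 605.8, 548.1 and 542.4 CPM against 682.2, 716.6, 768.5 and 692.8 CPM, also without overlap (0.34 ± 0.11, edgeR adjusted p = 0.0776). A copy elsewhere in the genome held 4.44% as many counts as Hnrnpk. Hnrnpl, which binds CA-rich RNA, was at 186.9, 185.6, 205.7 and 188.9 CPM against 193.2, 284.8, 268.3 and 201.6 CPM (0.31 ± 0.15, edgeR adjusted p = 0.204, and 0.20 without K-Setd2KO 2). Hnrnpa0 was at 93.7, 104.5, 104.0 and 85.7 CPM against 94.96, 124.3, 121.4 and 124.8 CPM (0.26 ± 0.13, edgeR adjusted p = 0.203). The groups of both genes overlapped at K-Setd2KO 1, and for Hnrnpl also at K-Setd2KO 4. The other hnRNP genes ranged from Hnrnpc (-0.08) to Hnrnpf (0.32). Hnrnpm overlaps March2 on the same strand over 24.9% of its exon bases, and Hnrnpab overlaps Phykpl on the other strand over 29.1%. Hnrnpf shares 13.5% and 13.0% with 2 opposite-strand transcripts, so the counts of these 3 are uncertain.

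The members on chromosome 6 were Hnrnpa2b1, Hnrnpf and Tra2a. There, the median log2 fold change of 839 tested genes was 0.27. The median deviation of those genes from the control mean was 0.31, -0.05, 0.32 and 0.36 in K-Setd2KO 1 to 4, so K-Setd2KO 2 stood apart. Hnrnpf was at 86.4, 79.7, 88.6 and 85.1 CPM in the controls and 124.0, 70.5, 112.6 and 118.6 CPM in K-Setd2KO (log2 fold change 0.32 ± 0.17, edgeR adjusted p = 0.239). Tra2a, an SR-like protein that binds exonic enhancers, was at 176.6, 191.5, 204.9 and 163.9 CPM against 258.2, 125.9, 206.4 and 249.2 CPM (0.19 ± 0.21, adjusted p = 0.592, with 0.07 to 0.36 when 1 tumor was left out, the highest without K-Setd2KO 2). For both, the tumor lowest in its group was K-Setd2KO 2, as for Hnrnpa2b1. Without K-Setd2KO 2, edgeR called 5 members higher (12.2% of 41), against 5.67% of all genes. They included Hnrnpa2b1 (log2 fold change 0.55, adjusted p = 0.028) and Hnrnpf but not Srsf6 (adjusted p = 0.0528). Relative to the chromosome median, Hnrnpa2b1 stood at 0.19. The part of the chromosome in these values was not tested further. None of the 4 called genes lies there.

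**Figure D4:**
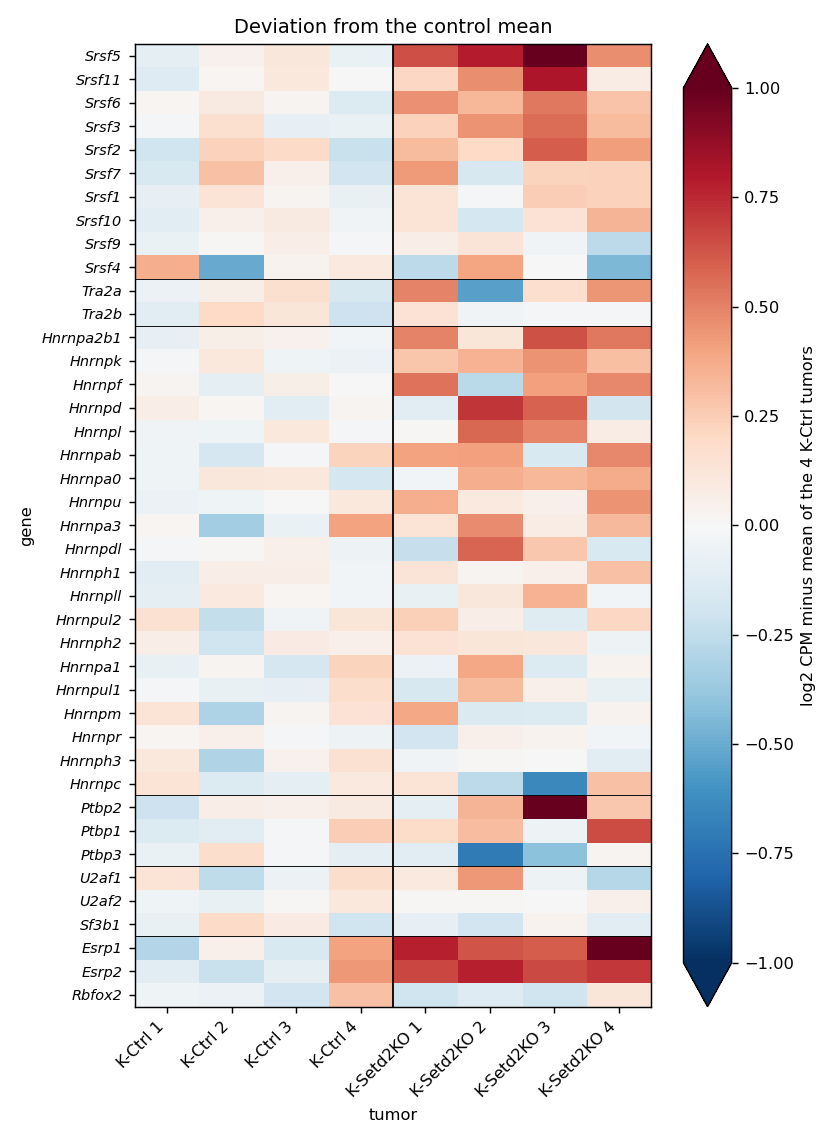
Log2 CPM minus the mean of the 4 K-Ctrl tumors for the 41 genes (rows) in 8 tumors (columns), with the scale limited to 1 in either direction. Esrp1, Esrp2 and Srsf5 are red in all 4 K-Setd2KO columns, and Hnrnpf and Tra2a, both on chromosome 6, are blue in K-Setd2KO 2. Genes of other chromosomes are also blue in that column, the lowest being Ptbp3 (-0.71), on chromosome 4.

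The PTB genes encode repressors of exons that differ between tissues. Ptbp1 was at 134.3, 137.2, 146.4 and 175.3 CPM in the controls and 167.4, 182.5, 142.2 and 231.7 CPM in K-Setd2KO (log2 fold change 0.29 ± 0.16, edgeR adjusted p = 0.276). Ptbp2, the neuronal form, was at 25.8, 31.2, 30.8 and 31.7 CPM against 27.9, 37.6, 60.4 and 35.9 CPM (0.44 ± 0.22, adjusted p = 0.222). K-Setd2KO 3 held the highest Ptbp2 value, and the log2 fold change was 0.18 without it. That of Ptbp1 was 0.14 without K-Setd2KO 4. Ptbp3 had the most negative value of any member, -0.28 ± 0.17 (adjusted p = 0.306).

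The 3 genes of 3' splice site recognition showed no difference that passed the test. Sf3b1, which binds the branch site as part of U2 snRNP, was at 389.0, 466.5, 434.0 and 356.0 CPM in the controls and 386.1, 359.3, 420.0 and 377.9 CPM in K-Setd2KO (log2 fold change -0.09 ± 0.13, edgeR adjusted p = 0.664). U2af2, which binds the polypyrimidine tract, was at 109.4, 106.9, 113.4 and 121.6 CPM against 113.6, 113.5, 112.3 and 116.6 CPM (0.01 ± 0.09, adjusted p = 0.934). U2af1, its partner at the AG dinucleotide, was at 60.0, 45.8, 52.4 and 61.9 CPM against 58.5, 73.7, 52.6 and 44.8 CPM (0.06 ± 0.17, adjusted p = 0.835). Tra2b, the paralog of Tra2a, was at 111.5, 138.7, 130.7 and 104.3 CPM against 133.4, 117.4, 119.5 and 119.5 CPM (0.01 ± 0.12, adjusted p = 0.951).

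Counts of all members together made up 1.02 to 1.08% of each control library and 1.15 to 1.35% of each K-Setd2KO library. Without Srsf5 the shares were 0.96 to 1.02% and 1.05 to 1.18%, still without overlap. The SR genes accounted for 0.202 to 0.234% against 0.264 to 0.414%, with the highest in K-Setd2KO 3. The hnRNP genes accounted for 0.659 to 0.718% against 0.740 to 0.813%. The groups overlapped for the PTB genes (0.0486 to 0.0574% against 0.0403 to 0.0618%), Tra2a and Tra2b (0.0269 to 0.0342% against 0.0229 to 0.0378%), the 3' splice site genes (0.0540 to 0.0642% against 0.0514 to 0.0595%), and Esrp1, Esrp2 and Rbfox2 together (0.0212 to 0.0303% against 0.0297 to 0.0365%). These shares describe the libraries and carry no test.

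Levels between genes were compared as CPM per kilobase of exon. In K-Ctrl, Hnrnpa1 (166.0 ± 19.5), Hnrnpa3 (165.0 ± 36.3) and Srsf5 (164.0 ± 11.2) were the highest, and their ranges overlapped. Reads of Hnrnpa1 and Hnrnpa3 could be divided with their 6 and 25 near-identical copies. In K-Setd2KO, Srsf5 had the highest mean, 318.0 ± 129.0, with a range of 225.0 to 508.0 that K-Setd2KO 3 extends and that touches the range of Hnrnpa3 (171.0 to 226.0). Of the 41 neighboring pairs in the control order, the ranges of 32 overlapped. Ptbp2, at 3.25 ± 0.30, was the lowest of the tested members.

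**Figure D5:**
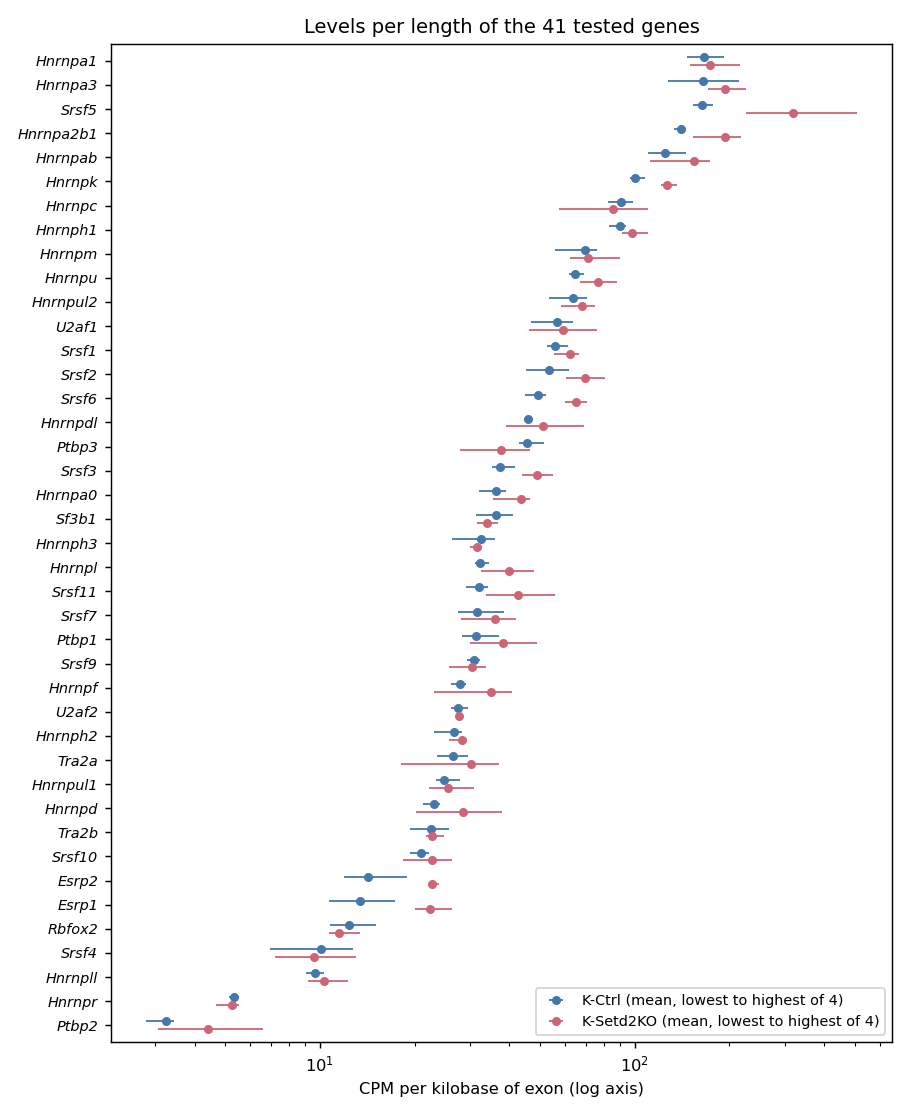
CPM per kilobase of exon on a log axis (x) for the 41 tested genes (y), with means and the lowest to highest of 4 tumors per group. Srsf5 moves from 164 in K-Ctrl to 318 in K-Setd2KO, while most other genes' ranges overlap between the groups.

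The members were longer than other genes (median 5383 against 3847 exon bases) and lower in GC (44.1% against 49.5%). Removing the trend of each tumor with length and GC as first set up, 13 members were called higher, against 11.4% of all genes called higher. That version also moved the median log2 fold change of all genes from 0.03 to 0.17. In a revised version, centred on the median and made after the first result was seen, 7 members were called, against 5.61% of all genes. DESeq2 called the same 7 (Esrp1, Esrp2, Srsf3, Srsf5, Srsf6, Hnrnpa2b1 and Hnrnpk), with 6.6% of all genes called higher.

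Genes around the members were read from 5 further lists. The kinases and import factors of SR proteins had 2 of 10 called higher, against 4.97% of all genes. These were Clk1 and Clk2, which phosphorylate SR proteins. Clk1 was at 293.7, 286.7, 286.3 and 257.7 CPM in the controls and 348.9, 379.8, 601.7 and 411.8 CPM in K-Setd2KO (log2 fold change 0.63 ± 0.18, edgeR adjusted p = 0.0471). As for Srsf5, K-Setd2KO 3 was the highest. Clk2 had a log2 fold change of 0.38 ± 0.11 (adjusted p = 0.0448). Both calls were lost with library totals, with the stricter low-count filter, with the replicate block, and without K-Ctrl 1, 2, 3 or 4 or K-Setd2KO 3 or 4, where 0 genes of this list were called.

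In the list of nonsense-mediated decay and the exon junction complex, 2 of 16 were called higher, against 4.97% of all genes, and 1 was called with the replicate block or without K-Ctrl 1, 2 or 3. Rnps1, which activates splicing and joins the junction complex, was at 14.2, 15.8, 17.5 and 17.4 CPM against 29.5, 27.7, 33.5 and 28.4 CPM (log2 fold change 0.88 ± 0.14, edgeR adjusted p = 0.00826). Upf3b, a decay factor, had a log2 fold change of 0.56 ± 0.13 (adjusted p = 0.0264). Of 26 snRNP and Sm proteins, Snrpg alone was called (0.50 ± 0.14, adjusted p = 0.0438), where 4.97% of all genes were called higher. Snrpg also lies on chromosome 6. The call of Snrpg was lost with library totals, either other low-count filter, the replicate block or the sex term, and in all 8 fits that left out 1 tumor, of which those without K-Ctrl 4 or K-Setd2KO 2 called 1 other gene of the list. Of 37 SF3, tri-snRNP and catalytic proteins, edgeR called 0, with 5 at an unadjusted p under 0.05 and 1 called by DESeq2. Over all genes, edgeR called 4.97% higher and 7.74% lower. At that unadjusted p, 13.6% of all genes were higher and 16.3% lower, and DESeq2 called 6.6% higher and 10.6% lower.

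Among 39 other splicing regulators, 2 were called higher and 2 lower, against 4.97% and 7.74% of all genes. Without K-Ctrl 1 or 3 there was 1 higher, and without K-Ctrl 1, 2 or 3 or K-Setd2KO 3 or 4 there was 1 lower. Rbm47, known from epithelial cells, and Rbmx, an hnRNP-related gene on the X chromosome, had log2 fold changes of 0.67 ± 0.13 and 0.61 ± 0.13 (edgeR adjusted p = 0.0143 and 0.0181). Celf2 (-0.74 ± 0.14, adjusted p = 0.0137) and Nova1 (-2.16 ± 0.50, adjusted p = 0.0246) were lower. Nova1 counts were few, at 1.79 to 5.73 CPM in K-Ctrl and 0.369 to 1.28 CPM in K-Setd2KO. Of the 9 genes called in these lists, 5 were called with the replicate block.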

How the data were processed

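Reads were aligned with STAR 2.5.2b to GRCm38.p4 and counted per gene with featureCounts 1.5.0-p1, per the submitters' notes. The annotation release and strand setting were not given in the sources used here. The deposited table holds raw counts per gene, not normalized by the authors, and another deposited column, in a unit of its own, gives the gene length. Symbols came from GENCODE M21 (99.26% of identifiers matched).

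Counts were tested with edgeR 4.0.16 in R 4.3.3: filterByExpr, TMM scaling, a robust quasi-likelihood fit and Benjamini-Hochberg adjustment over 14929 genes, with a threshold of 0.05. The standard error was taken as the absolute log2 fold change over the square root of F. CPM used TMM-scaled totals. Depth limits low genes: 3 counts equal 0.139 to 0.514 CPM, by counting error only. The code was tested on simulated data. Alternatives were other scalings and filters, DESeq2 1.42.0, limma 3.58.1 (voom), each tumor left out, the replicate number as a block, sex by expression, and a trend with length and GC removed. That last correction was revised after its first result was seen, because it recentred all genes, and both versions are kept. The titles do not say whether same-numbered tumors are paired. Their deviations from the group means correlated at -0.07, -0.03, 0.19 and -0.02. The 0.19, of the tumors numbered 3, was the highest of any combination of a K-Ctrl and a K-Setd2KO tumor. With so few tumors this check cannot decide whether the numbers pair them, so the block was kept as an alternative.

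Full values are given for members past the threshold, the 12 tested members with the smallest p, and Ptbp1, Ptbp2, Esrp1, Esrp2, Rbfox2, Sf3b1, U2af1, U2af2, Tra2a and Tra2b. The members were picked by a rule on names, and that rule and the lists were chosen with earlier results of these data known. An allele that the mice of both groups share is not reported here.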

Additional observations from a re-analysis of the deposited data

Results flagged for a closer look

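Among the 82 groups of 4 values (41 genes in each group of tumors), 8 held a tumor far from the other 3, where about 4.1 would by chance at 1 in 20. In K-Ctrl these were Esrp2 in tumor 4 (81.9 CPM, above the others), Hnrnph2 in tumor 2 (101.0 CPM, below), Hnrnpl in tumor 3 (205.7 CPM, above) and Ptbp2 in tumor 1 (25.8 CPM, below). In K-Setd2KO they were Hnrnpa0 in tumor 1 (94.96 CPM, below), Hnrnpab in tumor 3 (310.5 CPM, below), Hnrnph2 in tumor 4 (112.1 CPM, below) and Tra2b in tumor 1 (133.4 CPM, above). Of these genes only Esrp2 was called between the groups.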

How the results depend on the processing

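The count of 4 called members was the same with RLE and upper-quartile factors and with limma voom, and 3 with library totals, no low-count filter, at least 10 counts in every tumor and the replicate block, which lost Srsf6. In all, 1890 and 1922 genes were called with RLE and upper-quartile factors, against 1897 in the main fit. Library totals gave 1893, no low-count filter 1623, and at least 10 counts in every tumor 1719. With sex as a term the count of called members was 2 (all higher), and 1237 genes were called in all, against 1897, of which 1024 were shared. With the length and GC trend removed as planned the member count was 13, with 31 called in the other splicing lists and 2728 genes in all. After that result was seen the correction was revised (centred on the median), and the member count was 7, with 12 in those lists and 2019 genes in all. DESeq2 gave 7 members, 3211 genes in all and 16 in the other lists, against 9. The replicate block gave 5 in those lists and 1341 genes in all. Leaving out 1 tumor gave 0 to 5 called members, all higher, 763 to 2058 genes in all, and 3 to 10 in the other lists. The cause of these changes was not tested.

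Uncalled genes near 0 changed sign. Tra2b had a log2 fold change of -0.0364 under library totals, -0.0198 under the stricter filter and -0.0595 under the sex term. For U2af2 the first 2 of these gave -0.0320 and -0.0179, and the revised trend -0.0170. U2af1 was at -0.0973 and Sf3b1 at 0.0441 under the revised trend. Under the planned trend Sf3b1 was at 0.217 and Rbfox2 at 0.0716. Leaving out 1 tumor gave -0.0507 to 0.0818 for Tra2b, -0.0124 to 0.0533 for U2af2, -0.0842 to 0.159 for U2af1 and -0.191 to 6.72e-05 for Rbfox2. Depth limits what can be said of Srsf12 and Nova1.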
